A study of Homo sapiens with 28 samples.

Results

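FBLN5, MAP1A and MAFK are 3 of the 20056 protein-coding genes in the RefSeq table of the human genome. They were chosen as genes that the study follows as targets of the fusion proteins, FBLN5 through its expression, and no H3K27ac value was used to choose them. H3K27ac is histone H3 acetylated at lysine 27, a mark of active promoters and enhancers. The peaks analysed were those with a summit within 2 kb or within 50 kb of the start site of each gene. These starts, in GRCh37/hg19, were chr14 position 92414046 for FBLN5 on the minus strand, chr15 position 43803325 for MAP1A and chr7 position 1570368 for MAFK, both on the plus strand. Of 654580 peaks in 14 lists, 21 had their summit within 2 kb of a start and 152 within 50 kb.

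All cells were SW872, an established human liposarcoma line, stably transduced with a construct. By their labels the 14 libraries make up 7 groups of 2, and the study describes the duplicates as biological. Besides an empty vector there are 2 fusions, called TAZ-CAMTA1 and YAP-TFE3. TAZ4SA and YAP5SA carry mutations by which TAZ and YAP stay active whatever the Hippo signal, and the constructs CAMTA1 and TFE3 hold the whole partner protein of each fusion. The cultures were recorded at 90% confluence for 48 h before collection, apart from the CAMTA1 cells, recorded as collected below confluence. The study's ChIP methods give 90% confluence for the CAMTA1 cells too. If those cells were sparser, the construct and the density cannot be told apart for that label. The label of each library gives H3K27ac as the antibody, while the protocol text names an antibody to the Flag tag. The study's ChIP methods name both a Flag antibody and an antibody to acetylated H3K27.

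In 14 of 14 lists the peak names give a construct that is not the one on the label. Lists labelled empty vector are named CAMTA1 inside, those labelled TAZ4SA are named empty vector, those labelled TAZ-CAMTA1 are named TAZ4SA, and those labelled CAMTA1 are named TAZ-CAMTA1. Lists labelled YAP5SA are named TFE3 inside, those labelled YAP-TFE3 are named YAP5SA, and those labelled TFE3 are named YAP-TFE3. Pairs of replicates are the same under either naming. Libraries are called by their labels below, results by peak name are given beside them, and which construct a difference belongs to is not certain.

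The lists held from 5721 peaks (TFE3 replicate 1) to 102009 (TAZ4SA replicate 1). Depth could be gauged only from the background solved at the peaks, whose 1st percentile per list was between 1.42 and 2.80 fragments. It was not ordered as list length, being 2.09 in TFE3 replicate 1, 2.18 and 1.42 in TAZ4SA, and 2.79 and 2.80 in YAP5SA. The cause of the difference in list length was not tested. A peak is described by its width, by its fold enrichment over background at the summit and by its rank, where rank 1 is the strongest peak of its list by p-value. Because a list of 5721 peaks cannot hold the weaker peaks of a list of 102009, a missing peak says only that no peak was called in that list.

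TAZ and YAP are the coactivators held in check by the Hippo pathway, and they reach DNA mainly through the TEAD transcription factors. In the fusions their N-termini are joined to parts of CAMTA1 or TFE3, which bring DNA-binding and activation domains of their own. FBLN5 encodes fibulin-5, a secreted extracellular matrix protein needed to assemble elastic fibres. MAP1A encodes a microtubule-associated protein best known from neurons. MAFK encodes a small Maf protein, a bZIP transcription factor without an activation domain of its own that pairs with partners such as NFE2L2 or BACH1 at antioxidant response elements.

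The 250 bases before each start are shown because the question at these genes was whether promoter chromatin differed with a construct, and because they hold or lack the letters of the factors involved. They come from RefSeq on GRCh38.p14, a build other than that of the peak lists, and entries matched 2 of the 3 genes, each with 2 starts. Capitals mark CGCG, the core of CAMTA-type sites, and overlapping matches were counted separately. The FBLN5 windows, on the minus strand, are chr14:91947695-91947944 for start 1 and chr14:91947033-91947282 for start 2. The MAP1A windows, on the plus strand, are chr15:43510704-43510953 for start 1 and chr15:43517358-43517607 for start 2.
FBLN5 start 1: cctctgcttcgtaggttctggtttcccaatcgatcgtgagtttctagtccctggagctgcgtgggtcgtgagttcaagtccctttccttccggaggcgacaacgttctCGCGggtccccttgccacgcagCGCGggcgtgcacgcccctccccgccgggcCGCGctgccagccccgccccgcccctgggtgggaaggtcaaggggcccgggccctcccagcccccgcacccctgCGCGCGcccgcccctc
FBLN5 start 2: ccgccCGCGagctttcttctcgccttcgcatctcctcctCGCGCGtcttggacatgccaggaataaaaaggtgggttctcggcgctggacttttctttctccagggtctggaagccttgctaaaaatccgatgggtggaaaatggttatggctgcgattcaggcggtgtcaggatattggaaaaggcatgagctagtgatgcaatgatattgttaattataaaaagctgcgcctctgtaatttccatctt
MAP1A start 1: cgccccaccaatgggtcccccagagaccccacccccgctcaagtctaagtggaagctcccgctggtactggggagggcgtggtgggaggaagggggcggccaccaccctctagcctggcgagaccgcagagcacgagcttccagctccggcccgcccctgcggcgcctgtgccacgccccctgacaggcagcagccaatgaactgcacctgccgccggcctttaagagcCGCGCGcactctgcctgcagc
MAP1A start 2: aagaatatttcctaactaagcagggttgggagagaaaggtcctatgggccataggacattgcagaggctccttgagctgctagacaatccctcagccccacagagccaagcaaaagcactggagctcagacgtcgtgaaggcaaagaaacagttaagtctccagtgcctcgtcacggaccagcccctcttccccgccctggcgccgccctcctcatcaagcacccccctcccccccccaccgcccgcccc

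FBLN5 start 1 held 5 CGCG matches between 142 and 11 bases before the start, and start 2, which lies 662 bp away, held 3. MAP1A start 1 held 2 overlapping matches from 21 to 16 bases before the start, and start 2 held 0. CGCG was present in 46.4% of 35116 RefSeq promoter windows of the same length, so these matches are common. On either strand, the windows held no GGAATG (TEAD), TGANTCA (AP-1), CACGTG (an E-box bound by TFE3) or TGCTGA (the core of a Maf recognition element). Those letters were present in 11.9%, 6.57%, 6.34% and 14.02% of all windows, so their absence from 4 windows is no sign about any factor.

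Related genes were looked up in the same way. Of 9 genes of elastic fibres (such as ELN, encoding elastin, and the crosslinking enzyme gene LOX), 7 matched, and CGCG was present in 7, TGCTGA in 3 and GGAATG in 2. Of 4 relatives of MAP1A (MAP1B, MAP1S and the LC3 genes), 3 matched, and CGCG was present in 2. Of 8 small MAF genes, partners and targets (such as NFE2L2, BACH1 and HMOX1), 7 matched, with CGCG in 6, TGCTGA in 3, CACGTG in 2 and TGANTCA in 1. A gene was counted if any of its windows held the letters, while the shares above are per window. The counts therefore cannot be set against those shares. Peaks at these genes were not analysed here, because their positions in the build of the lists were not at hand.

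FBLN5 had no H3K27ac peak at its promoter in any library. In 14 of 14 lists no summit lay within 2 kb of the start, and no peak overlapped that window. Within 50 kb there was 1 peak in 1 list, TAZ-CAMTA1 replicate 2 (TAZ4SA by peak name), with its summit -41.8 kb from the start, where negative distances are upstream. It was 287 bp wide, had a fold enrichment of 3.32 and ranked 43013 of 48372, with 8 fragments at its summit over a background of 1.71. The other TAZ-CAMTA1 library had no peak there, so this peak was not shared by the pair.

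The FBLN5 start lay in a long stretch without peaks. Going upstream, the nearest summit apart from the weak peak above was between -92.3 and -89.8 kb in every list. Going downstream, through the gene itself, which spans 78284 bp in RefSeq, the nearest summit was between 435 and 438 kb in every list. The nearest upstream peak was weak in TAZ4SA (ranks 88504 and 89373) and in CAMTA1 replicate 2 (rank 14112). A stronger peak near -92 kb ranked 531 to 5261 (median 1914.5) in the 14 libraries. The best upstream peak within 500 kb lay between -177 and -172 kb in every list and ranked 204 to 2511 (median 406), and the best downstream peak ranked 311 to 1470 (median 714). The gene next to FBLN5 upstream is TRIP11 and the gene next to it downstream is TC2N. Within 500 kb a list held from 3 peaks (TFE3 replicate 1) to 18 (TAZ4SA replicate 2). No list held a promoter peak at FBLN5, whatever its length, and each of them held peaks on both sides of it.

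**Figure D1:**
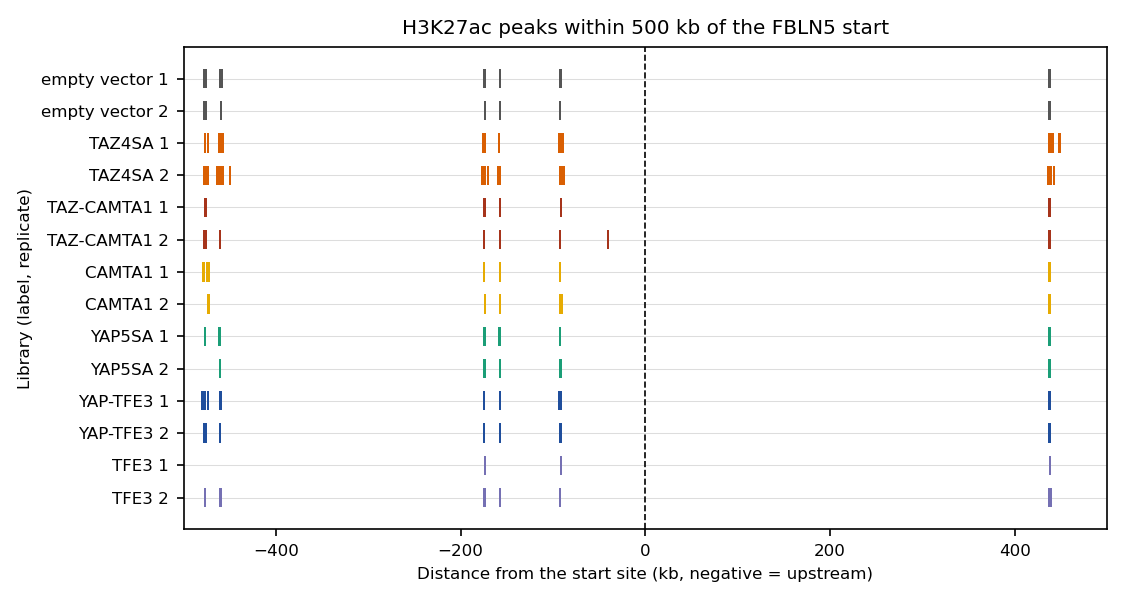
H3K27ac peaks within 500 kb of the FBLN5 start, with distance from the start in kb on the x axis (negative is upstream), 1 row for each of the 14 libraries and bars for peaks (widened where too narrow to see). A single narrow bar, at -41.8 kb in TAZ-CAMTA1 replicate 2, breaks the peak-free stretch from about -90 kb to 435 kb.

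MAP1A had a modest peak just upstream of its start in most libraries. A summit lay within 2 kb in 11 of 14 lists, and in TAZ-CAMTA1 replicate 2, CAMTA1 replicate 1 and TFE3 replicate 2 there were 2 such peaks. No summit was called there in TAZ-CAMTA1 replicate 1, YAP-TFE3 replicate 2 or TFE3 replicate 1, which had 21748, 39653 and 5721 peaks in all. Every summit was upstream, between -1.61 and -0.40 kb. The best peak had a fold enrichment of 3.32 to 14.2 and 9 to 44 fragments at its summit.

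The MAP1A peak ranked 9697 and 11002 in the empty vector libraries, 11453 and 12782 in TAZ4SA, and 21907 in the TAZ-CAMTA1 library that had it. It ranked 29663 and 22574 in CAMTA1, 18605 and 7580 in YAP5SA, 28473 in the YAP-TFE3 library that had it and 10759 in the TFE3 library that had it. By rank the empty vector and TAZ4SA libraries and TFE3 replicate 2 were high, CAMTA1 and both fusion labels were low, and the YAP5SA pair spanned most of that range. Empty vector and TAZ4SA, whose lists differ in length, did not overlap as a percent of the list (22.6% and 22.1% against 11.2% and 12.9%) or in fold enrichment (8.04 and 8.28 against 14.2 and 11.6). The summed width of peaks within 2 kb was 1351 and 2102 bp in empty vector, 4305 and 2954 bp in TAZ4SA, 0 and 811 bp in TAZ-CAMTA1, and 1020 and 580 bp in CAMTA1. It was 1450 and 411 bp in YAP5SA, 403 and 0 bp in YAP-TFE3 and 0 and 997 bp in TFE3. The TAZ4SA libraries had the broadest peaks at MAP1A and did not overlap with any other label in width. They also had the longest lists, with 102009 and 98992 peaks, and the part of list length in the width was not tested. Gaps between pairs of 2 libraries, here and at MAFK, are a description, and the share of all regions with such a gap is not given.

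**Figure D2:**
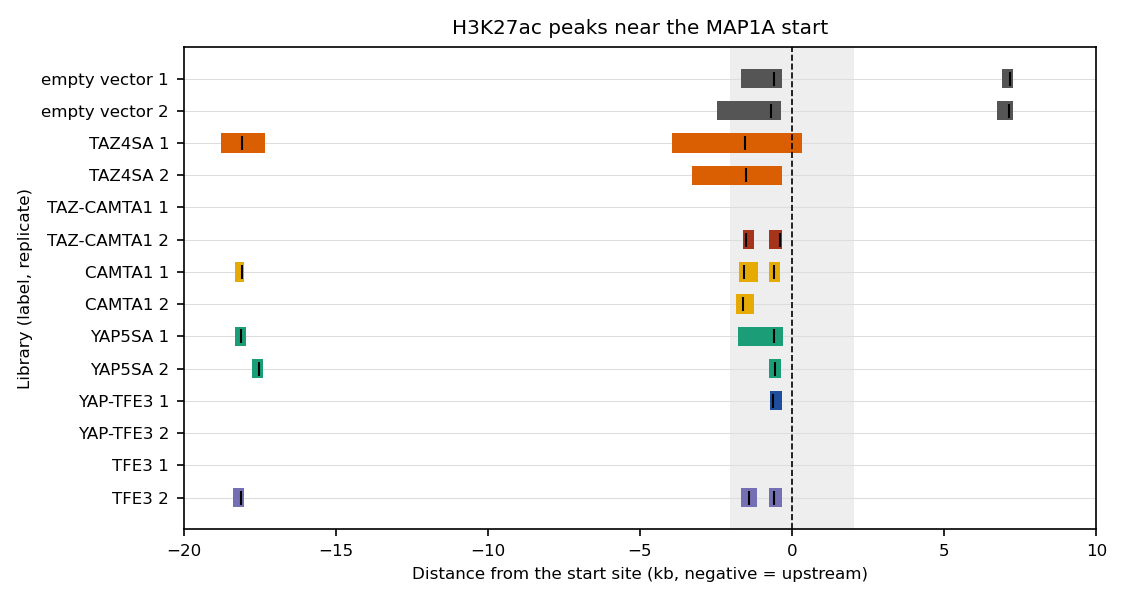
H3K27ac peaks from 20 kb upstream to 10 kb downstream of the MAP1A start, with distance in kb on the x axis, 1 row per library, bars for peaks and ticks for summits. Grey marks 2 kb to each side of the start, where 11 of 14 lists have a summit, all to the left of the start.

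The upstream peak cannot be given to MAP1A alone. In RefSeq the neighbouring gene TP53BP1, which encodes a DNA damage response protein, starts on the other strand, and the promoter windows of the 2 genes, each of 300 bases, share 187 bases. The peaks at -1.61 to -0.40 kb lie on the TP53BP1 side of the MAP1A start, so acetylation there cannot be told apart between the 2 genes.

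Whether a fusion differed from its controls at MAP1A was tested with limma on -log2 rank of the best peak per region. The table held the 23317 regions with a peak in at least 7 lists, and p-values were adjusted by the Benjamini-Hochberg method over all of them. The MAP1A region was chr15:43799363-43803667. A positive difference means a better rank in the group named first, and a library without the peak was given the rank past the end of its list. None of the 4 comparisons at MAP1A passed an adjusted p of 0.05, and 2 had an unadjusted limma p under 0.05, those of YAP-TFE3, as did 4.82% (against empty vector) and 10.1% (against YAP5SA) of all regions in the same direction. TAZ-CAMTA1 minus empty vector was -1.08 (SE 0.62, limma adjusted p = 0.703) and YAP-TFE3 minus empty vector was -1.70 (SE 0.62, limma adjusted p = 0.261). TAZ-CAMTA1 minus TAZ4SA was -0.85 (limma adjusted p = 0.525) and YAP-TFE3 minus YAP5SA was -1.50 (limma adjusted p = 0.163). In each of them the fusion value rests on 1 library with a peak and 1 with an imputed rank. That of TAZ-CAMTA1 replicate 1, 21749, is better than the measured rank of its partner, 21907, because its list is short. With missing peaks ranked past the longest list, TAZ-CAMTA1 minus empty vector was -2.19 (limma adjusted p = 0.649) and TAZ-CAMTA1 minus TAZ4SA was -1.97 (limma adjusted p = 0.366). With rank as a percent of the list, TAZ-CAMTA1 minus TAZ4SA was -2.48 (limma adjusted p = 0.0276), and 41.5% of all regions passed that comparison. By rank both fusion-labelled pairs were lower at MAP1A than the pairs they were set against, and none of these differences passed after adjustment over all regions.

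Few regions passed these comparisons anywhere in the genome. Of all regions, 0.154% were higher and 0.0558% lower in TAZ-CAMTA1 than in empty vector, and 0.296% were higher and 0.0558% lower in YAP-TFE3 than in empty vector. Against the active forms, 2.79% were higher and 1.39% lower in TAZ-CAMTA1 than in TAZ4SA, and 3.49% were higher and 1.81% lower in YAP-TFE3 than in YAP5SA. The median difference over all regions was 0.03, -0.11, -0.18 and -0.22 on the log2 scale in these 4 comparisons. The balance of directions, at an unadjusted limma p under 0.05, depended on the scale. In TAZ-CAMTA1 minus TAZ4SA 9.02% were higher and 7.82% lower by rank. By percent of the list these shares were 0.789% and 56.5%, and by fold enrichment 23% and 4.41%. In YAP-TFE3 minus YAP5SA the shares were 9.8% and 10.1% by rank, 15.7% and 1.27% by percent, 13.6% and 7.04% by fold enrichment. In tests over the labels, TFE3 replicate 1, without a MAP1A peak, stands at an imputed rank of 5722, better than any measured rank there. Without TFE3 replicate 2 that imputed rank is the only value of its label. Over the 7 labels together, 7.22% of regions passed limma's F test, and MAP1A did not (F = 3.15, limma adjusted p = 0.118). Without TFE3 replicate 2 it did (F = 5.73, limma adjusted p = 0.0105), and without either TFE3 library YAP-TFE3 minus YAP5SA was past the threshold as well (-1.50, limma adjusted p = 0.0387). In those fits 62.9% of all regions passed the F test and 15.5% passed YAP-TFE3 minus YAP5SA.

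By peak name the YAP-TFE3 differences at MAP1A turned and those of TAZ-CAMTA1 did not. The 2 lists named empty vector inside (labelled TAZ4SA) then held the broadest peaks, the 2 named TAZ-CAMTA1 (labelled CAMTA1) ranked 29663 and 22574, and 1 of the 2 named YAP-TFE3 (labelled TFE3) had a peak, at rank 10759. TAZ-CAMTA1 minus empty vector was -1.10 (limma adjusted p = 0.709) and TAZ-CAMTA1 minus TAZ4SA was -0.25 (limma adjusted p = 0.949). YAP-TFE3 minus empty vector was 0.62 (limma adjusted p = 0.620) and YAP-TFE3 minus YAP5SA was 2.10 (limma adjusted p = 0.0494). The latter is past the threshold, opposite in direction to the result by label, and 4.19% of all regions passed that comparison by peak name. The value of 2.10 rests on an imputed rank in each pair. The imputed rank of the list named YAP-TFE3 is 5722, better than any measured rank at MAP1A, only because that list ends there.

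There were 2 further MAP1A sites within 50 kb. At -18.1 kb a peak stood in 5 lists (both YAP5SA libraries, TAZ4SA replicate 1, CAMTA1 replicate 1 and TFE3 replicate 2), at ranks 16591 to 40412 and fold enrichments of 3.31 to 5.22. At 7.2 kb downstream a peak stood in both empty vector libraries and in no other list. Its summits were 7167 and 7136 bp from the start, its widths 365 and 528 bp, its fold enrichments 3.82 and 3.55, and its ranks 30092 and 36232. Both summits held 11 fragments, where the summits of the upstream peak held 24 and 27 in the same libraries. The region, chr15:43810050-43810579, is 1 of 49 with peaks in both empty vector libraries and nowhere else, 0.0353% of 138757 merged regions. By peak name these are the CAMTA1 libraries. RefSeq lists a second MAP1A start 6654 bp downstream of the first, and whether the acetylated site lies at it was not tested, since the builds differ.

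MAFK stood in the most heavily acetylated surroundings of the 3 genes. Within 50 kb of its start the lists held 130 peaks in all, from 3 (TFE3 replicate 1) to 23 (TAZ4SA replicate 2). In RefSeq the neighbouring genes are INTS1 upstream and TMEM184A downstream. Which gene a peak outside MAFK belongs to was not tested, so sites below are named only by distance from its start. A peak overlapped the window of 2 kb around the start in 14 of 14 lists, yet only 7 lists had a summit there. In the other lists a single long peak reached into the window and had its summit about 7 kb into the gene, which is 12342 bp long in RefSeq. In 6 of these 7 lists it began downstream of the start, by 15 to 407 bp, and in YAP5SA replicate 2 it covered the start. In TAZ4SA replicate 1 the long peak also covered the start, and the summit counted there belongs to a separate peak of 309 bp that ranked 96053.

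**Figure D3:**
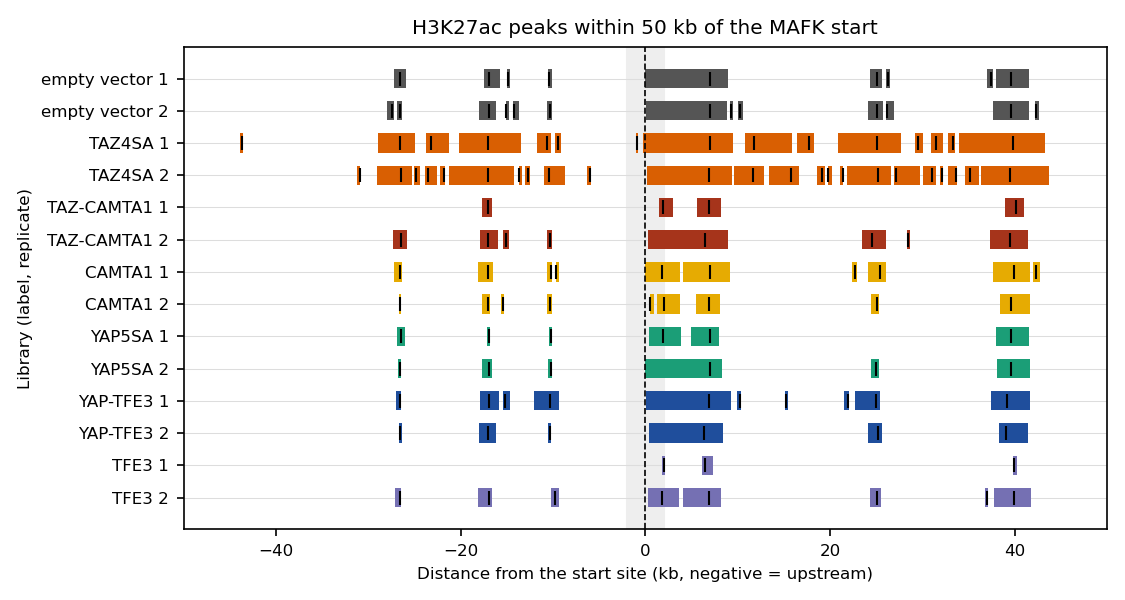
H3K27ac peaks within 50 kb of the MAFK start, with distance in kb on the x axis, 1 row per library, bars for peaks and ticks for summits, and grey for 2 kb to each side of the start. A block downstream of the start and a block near 40 kb are present in all 14 rows, and the TAZ4SA rows are the most filled.

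The peaks around MAFK fell at 34 summit sites, of which 6 recurred in 11 or more lists. These were -26.5 kb (12 lists), -17.0 kb (13), -10.3 kb (12), 6.9 kb (14), 25.1 kb (11) and 39.6 kb (14) from the start. Another 16 sites were seen only in lists labelled TAZ4SA, and 17 sites were in a single list. Of the 16 merged regions around MAFK, 9 (56.2%) were found only in TAZ4SA lists, near the 50% of all merged regions of which this holds. At 1.9 kb a separate summit was called in 6 lists (TAZ-CAMTA1 replicate 1, YAP5SA replicate 1, and both libraries of CAMTA1 and of TFE3), at ranks 2282 to 7135, and in the remaining 8 lists the long peak covered this stretch.

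The 6.9 kb site was the strongest in the neighbourhood in most libraries. Its rank was 393 and 176 in empty vector, 4542 and 4885 in TAZ4SA, 1711 and 4117 in TAZ-CAMTA1 and 634 and 687 in CAMTA1. It was 678 and 571 in YAP5SA, 404 and 2019 in YAP-TFE3, and 886 and 864 in TFE3. The empty vector pair ranked best and the TAZ4SA pair worst, with no overlap between either of them and any other label. Since the share of all regions with such gaps is not given, they are a description only. CAMTA1, YAP5SA and TFE3 lay close together, inside the range of the YAP-TFE3 pair. The 2 TAZ-CAMTA1 libraries lay between YAP5SA and TAZ4SA and overlapped with YAP-TFE3 alone.

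**Figure D4:**
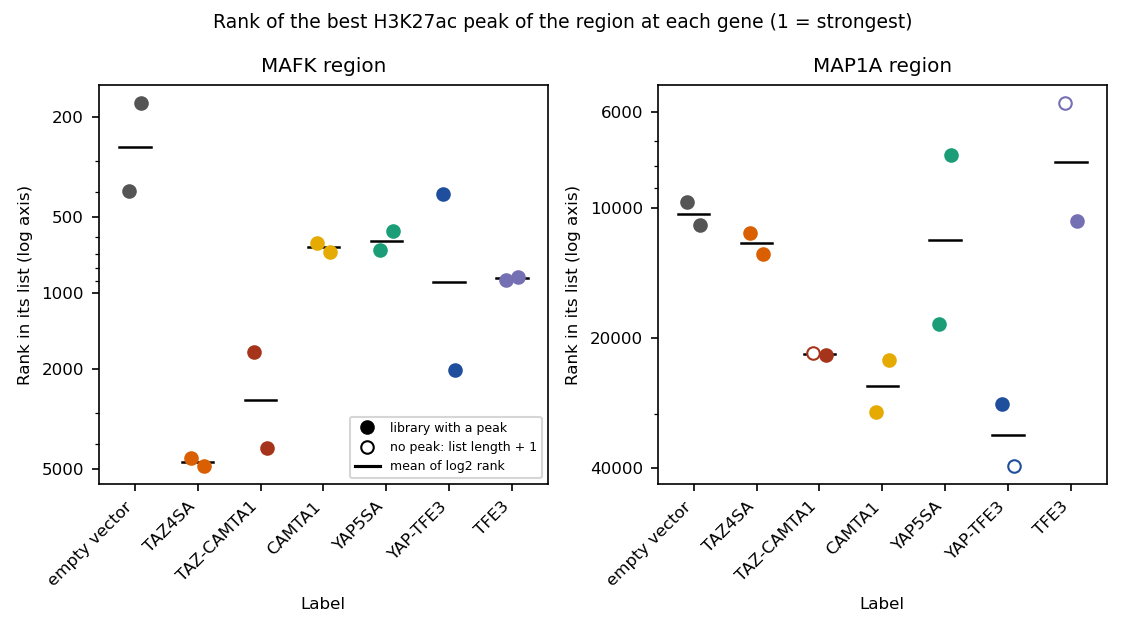
Rank of the best peak of the MAFK and MAP1A regions in its list, on a log axis with rank 1 at the top, by label. Filled points are libraries with a peak, open points are libraries without a peak (set to the list length plus 1), and bars are means of log2 rank; at MAFK the empty vector points sit at 176 and 393 and the TAZ4SA points at 4542 and 4885.

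Other measures of the same site did not give the same order. Its fold enrichment was 16.4 and 30.2 in empty vector, 20.9 and 18.6 in TAZ4SA, 8.15 and 9.70 in TAZ-CAMTA1 and 13.2 and 12.4 in CAMTA1. It was 16.8 and 11.3 in YAP5SA, 18.4 and 10.1 in YAP-TFE3 and 5.74 and 18.7 in TFE3. TAZ4SA, lowest by rank, was thus among the highest by fold enrichment, and its lists were the longest. The peak was also wide in most lists, from 1220 bp in TFE3 replicate 1 to 9749 bp in TAZ4SA replicate 1. As a share of the list length the ranks were 0.917% and 0.353% in empty vector, 4.45% and 4.93% in TAZ4SA, 7.87% and 8.51% in TAZ-CAMTA1 and 0.703% and 5.09% in YAP-TFE3. On this scale TAZ-CAMTA1 lay below TAZ4SA, and only TFE3 replicate 1, with the shortest list, was lower (15.5%).

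The limma comparison of the MAFK region, chr7:1570168-1579916, differed from that of MAP1A. This region is among the 2.93% of merged regions with a peak in all 14 lists, so no rank was imputed. It passed the F test over the 7 labels (F = 8.10, limma adjusted p = 0.00272), as did 7.22% of all regions. That test does not depend on the naming. It passed that test in 14 of 14 fits that left out 1 library (limma adjusted p from 0.00166 to 0.0192), in which 3.07% to 62.9% of all regions passed. It no longer passed with rank as a percent of the list (F = 3.32, limma adjusted p = 0.108), with fold enrichment (F = 2.51, limma adjusted p = 0.142) or with missing peaks of other regions ranked past the longest list (F = 4.62, limma adjusted p = 0.102). The last of these left the MAFK ranks as they were. F stayed above 1 in all 3, and the adjusted p crossed the threshold.

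TAZ-CAMTA1 ranked lower than empty vector at MAFK, with a log2 difference of -3.34 (SE 0.69, limma adjusted p = 0.0313). MAFK was among the 13 regions, 0.0558% of those tested, that were lower in that comparison. The difference stayed negative in every fit that left out 1 library (-3.97 to -2.70), and the adjusted p was above 0.05 in 7 of 14 of them. Without empty vector replicate 1 the difference was -3.91 (limma adjusted p = 0.360), without empty vector replicate 2 it was -2.76 (limma adjusted p = 0.478) and without TAZ-CAMTA1 replicate 2 it was -2.70 (limma adjusted p = 0.173). Without either CAMTA1 library (limma adjusted p = 0.0681) or either YAP5SA library (limma adjusted p = 0.0649) it was -3.34. By peak name, TAZ-CAMTA1 minus empty vector was 2.84 (limma adjusted p = 0.0951), in the other direction, because the lists so named ranked 634 and 687 against 4542 and 4885. The call was also lost with rank as a percent of the list (limma adjusted p = 0.808), fold enrichment (0.154), regions in all lists (0.0823), lists cut to equal length (0.0954) and missing peaks past the longest list (0.632). The lists compared held 21748 and 48372 peaks against 42841 and 49855.

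The other comparisons at the MAFK region did not pass. YAP-TFE3 minus empty vector was -1.78 (limma adjusted p = 0.297) by label and 2.43 (limma adjusted p = 0.0672) by peak name. TAZ-CAMTA1 minus TAZ4SA was 0.83 (SE 0.69, limma adjusted p = 0.591) by label and 2.01 (limma adjusted p = 0.151) by peak name. YAP-TFE3 minus YAP5SA was -0.54 (SE 0.69, limma adjusted p = 0.702), where the pairs overlap. These values do not show that the labels acted alike, since a difference of 1 SE is 0.69 on the log2 scale, and without YAP-TFE3 replicate 2 the last difference was 0.62.

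The 39.6 kb site showed another order than the 6.9 kb site. There the TAZ4SA libraries ranked best, at 482 and 1009, against 3651 and 2817 in empty vector and 3989 and 1186 in TAZ-CAMTA1. CAMTA1 ranked 1285 and 1947, YAP5SA 1784 and 3047, YAP-TFE3 6646 and 3231, and TFE3 2976 and 2785. TAZ4SA did not overlap with any other label at 39.6 kb, as at 6.9 kb, but at the opposite end of the order. Its fold enrichments were 45.1 and 31.2 there, against 10.1 and 10.3 in empty vector. The region passed neither the F test (F = 3.46, limma adjusted p = 0.0923) nor TAZ-CAMTA1 minus TAZ4SA (-1.64, limma adjusted p = 0.182).

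**Figure D5:**
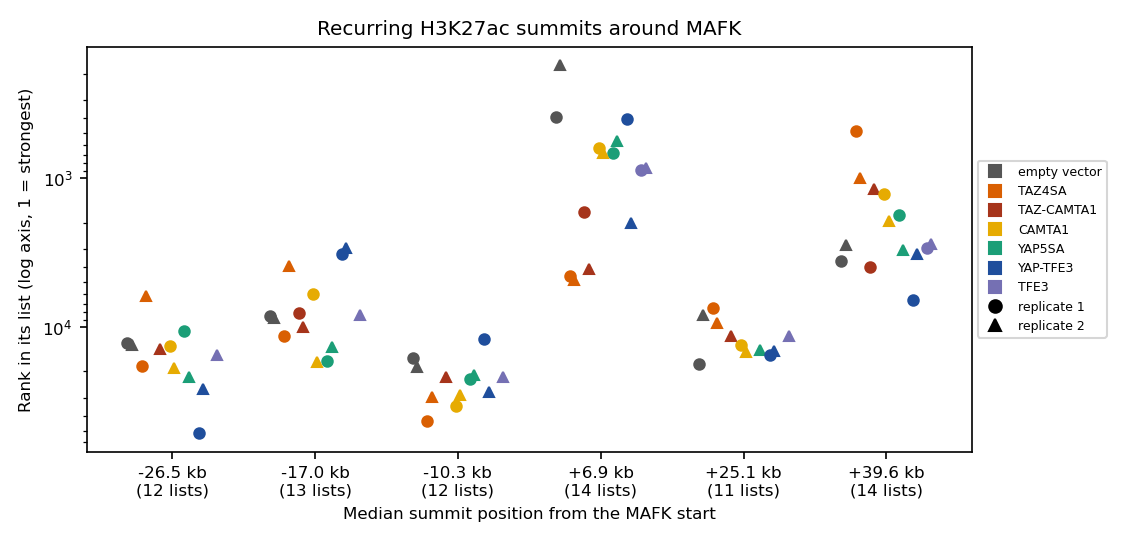
Rank of the peak at each of the 6 sites around MAFK found in 11 or more lists, with the median summit position from the start on the x axis and rank on a log axis with rank 1 at the top, by label (colour) and replicate (shape). At 6.9 kb the empty vector points are highest and at 39.6 kb the TAZ4SA points are.

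Of the 6 regions within 50 kb of the MAFK start and the 1 MAP1A region tested, giving 28 comparisons, 2 comparisons (7.14%) passed. Both were within 50 kb of the MAFK start, and 1 was that of the MAFK region above. Over all regions 2.51% of the same 4 comparisons passed. The other was at -17.0 kb, chr7:1546524-1556968, a site singled out after its values were seen. Its rank was 3278 and 2957 in YAP-TFE3 against 16958 and 13651 in YAP5SA. Empty vector ranked 8536 and 8743, TAZ4SA 11603 and 3919, TAZ-CAMTA1 8123 and 10022, CAMTA1 6062 and 17175, and TFE3 replicate 2 8360, with no peak in TFE3 replicate 1. The YAP-TFE3 pair was thus the best ranked and the YAP5SA pair among the worst, without overlap.

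At that site YAP-TFE3 minus YAP5SA was 2.29 (SE 0.65, limma adjusted p = 0.0353), where 3.49% of regions were higher. The fold enrichments were 13.0 and 9.38 in YAP-TFE3 and 3.63 and 4.05 in YAP5SA, and the widths 2028 and 1789 bp against 313 and 1106 bp. Against empty vector the YAP-TFE3 difference was 1.47 (limma adjusted p = 0.382). Leaving out 1 library kept the difference between 2.13 and 2.45 and took the adjusted p above 0.05 in 6 of 14 fits. Those were the fits without either empty vector library (limma adjusted p = 0.0538), without YAP5SA replicate 1 (2.13, limma adjusted p = 0.329) or replicate 2 (2.45, limma adjusted p = 0.148), and without YAP-TFE3 replicate 1 (2.36, limma adjusted p = 0.201) or replicate 2 (2.21, limma adjusted p = 0.183). By peak name the difference was -1.15 (limma adjusted p = 0.228), so its direction turns with the naming. The region did not pass the F test over the 7 labels (F = 2.35, limma adjusted p = 0.215). The call was also lost with rank as a percent of the list (2.93, limma adjusted p = 0.0924) and with missing peaks ranked past the longest list (2.29, limma adjusted p = 0.237).

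The acetylated length within 50 kb of MAFK was 18528 and 21110 bp in empty vector, 51791 and 53401 bp in TAZ4SA, 7238 and 20110 bp in TAZ-CAMTA1 and 19584 and 11776 bp in CAMTA1. It was 11531 and 14705 bp in YAP5SA, 23436 and 15050 bp in YAP-TFE3 and 2019 and 16206 bp in TFE3. Only the TAZ4SA pair stood clear of the rest, and it has the longest lists. As a share of all acetylated DNA in the list, the TAZ4SA length was 296 and 374 ppm, inside the 268 to 546 of the other libraries. Around MAP1A the length was 5776 and 2954 bp in TAZ4SA and at most 2630 bp elsewhere. As a share of the list it was 33.1 and 20.7 ppm in TAZ4SA and up to 41.8 elsewhere. TAZ4SA (empty vector by peak name) thus had the most acetylated DNA at both genes in bp, and not relative to its lists.

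Agreement in length within labels was tested against all 135135 ways to pair the 14 libraries. Labels accounted for 64.4% of the variance of log2 length within 50 kb at MAFK (exact one-sided permutation p = 0.128) and 47.8% at MAP1A (exact one-sided permutation p = 0.265). For peak width within 2 kb they accounted for 55.9% at MAFK (exact one-sided permutation p = 0.319) and 46.6% at MAP1A (exact one-sided permutation p = 0.286). The adjusted p of these 4 exact permutation tests was 0.319, so the lengths did not separate the labels beyond the spread of replicates. The test does not depend on the naming. Without TFE3 replicate 2 the MAFK length did separate them (90.5% of variance, exact permutation adjusted p = 0.0240), which leaves TFE3 replicate 1, the shortest list, without a partner. FBLN5 had too few peaks to be tested. With its 1 peak in 1 list, every pairing gave 46.2% of the variance of length, and the MAP1A values lie close to that.

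Regions whose ranks followed those of a gene most closely over the 14 lists are given as a description. For MAP1A they were chr2:27650392-27656275 (Pearson r = 0.909) and chr6:41036786-41044153 (Pearson r = 0.893) of 4060 regions with a peak in all lists. For MAFK they were chr19:54365614-54375939 (Pearson r = 0.939) and chr19:1025390-1031321 (Pearson r = 0.878) of 4054. For MAP1A the 3 lists without a peak entered at imputed ranks (21749, 39654 and 5722), which are set by list length. All regions of a library share its list length and depth.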

How the data were processed

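H3K27ac ChIP-seq peak lists of 14 SW872 libraries were analysed, and the 14 input libraries were not. Per the study's methods and the submitters' processing notes, the authors used BWA-MEM for alignment to GRCh37/hg19, dropped reads that mapped to several places or to greylist regions, and ran MACS2 in narrow-peak mode on fragments of read pairs. A q-value limit of 0.1 and pooled replicates are stated, but the lists are separate for each library and their highest q is 0.05. Each deposited line gives an interval, a summit offset, a display score (not used for any result), a fold enrichment (a ratio over background) and -log10 p and q-values as the authors' caller wrote them. Read totals were not used here. Summit fragment counts and background were solved from fold and p, and 99.995% or more of the counts in any list were whole within 0.05.

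The 3 genes, the related gene lists and the tests were chosen with earlier results of these data known. The 3 genes were all named, and like regions were the 2 with the highest correlation. The start sites were not checked against an annotation of that build. Overlapping or touching peaks were merged into 138757 regions. limma 3.58.1 in R 4.3.3 was fitted to -log2 rank, without a block, since the methods state no replicate test. Exact tests used 135135 pairings on log2(1 + bp). Other code ran in Python 3.11.15 (pandas 2.3.3, scipy 1.17.1, numpy 2.4.6, matplotlib 3.10.9) and was tested on simulated data. Same-numbered replicates of different labels did not deviate together (median correlation 0.00903 over 21 label pairs, 1 of them over 0.1).

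Alternatives were a -log10 q of at least 5, the 5721 strongest peaks of each list, regions with a peak in all 14 lists, rank as a percent of the list, centred fold enrichment, windows of 5, 25 and 100 kb, overlap in place of the summit, peaks within 1000 bp stitched, each library left out, groups by peak name and a replicate block. Leaving missing peaks out, and ranking them past the longest list, were added after seeing the data.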

Additional observations from a re-analysis of the deposited data

How the results depend on the processing

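The lists hold peaks above a threshold and no reads, so a missing peak shows only that none was called, and 2 libraries per label limit every comparison. Where a library was left out, the remaining library of its label was assumed to vary like the others. By peak name the differences were, at MAP1A, 0.62 for YAP-TFE3 minus empty vector and 2.10 for YAP-TFE3 minus YAP5SA, at MAFK 2.84 for TAZ-CAMTA1 minus empty vector, 2.43 for YAP-TFE3 minus empty vector and 0.046 for YAP-TFE3 minus YAP5SA, and -1.15 at the -17.0 kb site, all in the other direction than by label. With rank as a percent of the list, TAZ-CAMTA1 minus TAZ4SA was -2.48 at MAP1A (now past the threshold, limma adjusted p = 0.0276, as were 41.5% of all regions) and -0.80 at MAFK (direction turned), YAP-TFE3 minus YAP5SA was 0.10 at MAFK (direction turned), and 3 calls were lost: TAZ-CAMTA1 minus empty vector at MAFK (-3.85, limma adjusted p = 0.808), the MAFK F test (3.32) and the -17.0 kb site (2.93, limma adjusted p = 0.0924). TAZ-CAMTA1 minus empty vector at MAFK also lost its call with fold enrichment (-0.96), and at -3.34 with regions in all 14 lists (limma adjusted p = 0.0823), lists cut to equal length (0.0954) and missing peaks ranked past the longest list (0.632). The MAFK F test lost it with fold enrichment (2.51) and with missing peaks past the longest list (4.62), as did the -17.0 kb site with the latter (2.29, limma adjusted p = 0.237). In each of these the cause was not tested.

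Lists with a summit within 2 kb became 0 for MAP1A and 2 for MAFK in lists cut to equal length, and 14 for MAFK by overlap within 2 or 5 kb. No width or length test crossed the threshold under the alternatives run on them, apart from the MAFK length without TFE3 replicate 2 (90.5%, exact permutation adjusted p = 0.0240).

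Leaving out 1 library at a time gave, at MAP1A, -1.17 to -0.99 (TAZ-CAMTA1 minus empty vector), -1.94 to -1.46 (YAP-TFE3 minus empty vector), -0.93 to -0.77 (TAZ-CAMTA1 minus TAZ4SA), -2.15 to -0.85 (YAP-TFE3 minus YAP5SA) and F of 2.20 to 5.73. At MAFK the ranges were -3.97 to -2.70, -2.94 to -0.62, 0.19 to 1.46, -1.70 to 0.62 and F of 5.54 to 9.96, in the same order, and 2.13 to 2.45 at the -17.0 kb site. The variance by label was 42.7% to 65.5% (MAP1A width), 50.6% to 71.9% (MAFK width), 43.8% to 67.3% (MAP1A length) and 56.1% to 90.5% (MAFK length).

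The number of regions called depended on the setting. For TAZ-CAMTA1 minus empty vector it was 49, and 77 with the replicate block, 0 with percent rank, 2 with regions in all lists, 307 with fold enrichment, 170 with missing peaks left out, 0 with missing peaks past the longest list, 116 with a -log10 q of at least 5 and 4 with lists cut to equal length. The limma fits that called 0 had 309 regions higher and 1045 lower (percent rank) and 625 higher and 1176 lower (past the longest list) at an unadjusted p under 0.05. For YAP-TFE3 minus empty vector it was 82, and 277 by peak name, 0 with percent rank (1191 higher and 293 lower at an unadjusted limma p under 0.05), 22, 394, 374, 1, 173 and 32 under the other settings in that order. For TAZ-CAMTA1 minus TAZ4SA it was 973, and 461 by peak name, 9678 with percent rank, 277 with regions in all lists, 3467 with fold enrichment, 1922 with missing peaks left out, 34 with missing peaks past the longest list and 297 with lists cut to equal length. For YAP-TFE3 minus YAP5SA it was 1237, and 662, 324, 2127, 394 and 336 with percent rank, regions in all lists, missing peaks left out, missing peaks past the longest list and lists cut to equal length. For the F test it was 1683, and 281, 438, 2575, 382 and 363 under those settings. Leaving out 1 library gave 0 to 413, 4 to 895, 155 to 2655, 53 to 3608 and 715 to 14658 regions, the highest of the first 2 ranges without either TFE3 library, and the 0 without empty vector replicate 1 (557 higher and 443 lower at an unadjusted limma p under 0.05). The replicate numbers do not pair the samples, and the replicate block changed no call at the 3 genes.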
